A study of Mus musculus with 18 samples.

Results

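The 6 genes described here encode the phagocyte NADPH oxidase and the small GTPases that switch it on: Cybb, Cyba, Ncf1, Ncf4, Rac1 and Rac2. They were chosen by symbol from the 55536 Ensembl genes of a count table of microglial RNA sequencing. Earlier results of these data were known when the choice was made. All 6 genes passed the filter on low counts in every comparison. Microglia were taken from the striatum of mice with magnetic beads against CD11b, a surface integrin of microglia and other myeloid cells. There were 5 WT samples, 3 Tyrobp-KO samples, 5 Q175 samples and 5 Q175;Tyrobp-KO samples, all on a C57BL/6 background. Q175 is a knock-in model of Huntington's disease, used here in heterozygous mice, in which the mutant huntingtin exon is present in every cell of the animal and not in microglia alone. Tyrobp-KO mice lack the adaptor protein TYROBP (DAP12) from the germ line, so the deletion is likewise not limited to microglia, and WT and Q175 mice carry intact Tyrobp. The labels give no age, and a sample is RNA of 2 striata according to them but of 1 striatum in the methods. Female samples were 1 of 5 WT, 2 of 3 Tyrobp-KO, 4 of 5 Q175 and 2 of 5 Q175;Tyrobp-KO samples. Because each library is RNA of many cells, fewer cells of a type and less RNA per cell cannot be told apart.

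The phagocyte oxidase moves electrons from NADPH across a membrane onto oxygen and so releases superoxide, the parent of other reactive oxygen species. Its catalytic core is a membrane flavocytochrome of gp91phox (Cybb, also called NOX2) and p22phox (Cyba), and it stays idle until cytosolic subunits, among them p47phox (Ncf1) and p40phox (Ncf4), arrive together with a GTP-bound Rac protein. In the brain this enzyme is chiefly a property of microglia, and neutrophils and monocytes hold it in abundance. TYROBP passes signals from receptors such as TREM2 to the kinase SYK, one of the routes by which phagocytes can set off the oxidase.

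The targeted gene followed the labels. Tyrobp had between 3649.8 and 8130.2 normalized counts in WT, between 3976 and 7149 in Q175, between 314 and 409.9 in Tyrobp-KO and between 176 and 279.7 in Q175;Tyrobp-KO, where a normalized count is a count scaled to the mean effective library size of the 18 samples. Total counts per sample lay between 11260410 and 29771983. The lowest raw count of any oxidase gene in any sample was 146, so counting error was small beside the spread over all 18 samples. This does not hold for Cybb within WT, where raw counts were between 352 and 427 and the spread was narrow. All 12 microglial markers had over 100 normalized counts in every sample, and their geometric mean (the microglial level below) ran from 10022 in Q175 replicate 4 to 23252 in Tyrobp-KO replicate 19. Of the 11 markers of monocytes and neutrophils, 6 were detected in every sample, Mpo was at 0 in all 18 and Elane in 17, and the geometric mean of the list was between 3.74 and 69.2. Astrocyte markers had a geometric mean between 474 and 3503 and those of oligodendrocytes between 2196 and 9102, so RNA of other brain cells was present in all libraries. The 2 libraries most alike, Q175;Tyrobp-KO replicates 13 and 16, correlated at 0.986, yet their chi-square statistic divided by its degrees of freedom was 14.1, so no library was a copy of another. The labels name no batch, and p-values here measure the spread between these samples.

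Levels per length differed widely within the complex. Mean RPKM over the 18 samples, computed from exonic lengths of GENCODE M21, was 78.7 for Cyba, 71.1 for Ncf1, 62.2 for Rac1, 14.4 for Ncf4, 14.1 for Rac2 and 3.55 for Cybb. Thus the transcript of the catalytic subunit was the least abundant of the 6 per length. The order of Cyba, Ncf1 and Rac1 is uncertain, since exonic bases of Ncf1 and Rac1 are shared with genes on the other strand and reads there may have been left uncounted or added. In spread across the samples the order was another one: the coefficient of variation of normalized counts was 45.1% for Cybb, 31.5% for Ncf1, 29.6% for Rac2, 29.0% for Ncf4, 19.7% for Cyba and 13.8% for Rac1.

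Cybb (ENSMUSG00000015340, chrX:9435252-9487771, minus strand, GRCm38) encodes gp91phox, the subunit that binds NADPH, FAD and the hemes. In WT replicates 1, 2, 6, 7 and 8 it had 409.8, 461, 434, 471 and 398 normalized counts. In Q175 replicates 3, 4, 9, 14 and 17 it had 250.4, 296, 108, 456 and 702. The 5 WT samples lay close together, at 435 ± 31.4 (SD, n = 5), while the Q175 samples reached from well below to well above them, at 362 ± 227 (SD, n = 5), and so the groups overlapped. In Tyrobp-KO replicates 15, 19 and 20 it had 764, 338 and 463 normalized counts, with a mean of 522 ± 219 (SD, n = 3). In Q175;Tyrobp-KO replicates 5, 11, 12, 13 and 16 it had 173, 417, 202, 253 and 229, with a mean of 255 ± 95.5 (SD, n = 5). Except for replicate 11, the Q175;Tyrobp-KO samples were below every WT and every Tyrobp-KO sample. The coefficient of variation was 7.21% in WT and 62.5% in Q175, and no test of that difference in spread was made.

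Cyba (ENSMUSG00000006519, chr8:122424776-122432930, minus strand) encodes p22phox, which stabilizes gp91phox and offers the docking site for p47phox. It had 1421, 1996, 1718, 1659 and 1237 normalized counts in WT replicates 1, 2, 6, 7 and 8. It had 1689, 1009, 1069.9, 1488 and 1833 in Q175 replicates 3, 4, 9, 14 and 17. The lowest values of the series were those of Q175 replicates 4 and 9, and the other 3 Q175 samples were inside the WT range. Tyrobp-KO replicates 15, 19 and 20 had 1789, 1973 and 1456 normalized counts of Cyba. Q175;Tyrobp-KO replicates 5, 11, 12, 13 and 16 had 1107, 1259, 1465, 1402 and 1530.0. Of the Q175;Tyrobp-KO samples, only replicates 12 and 16 were above the lowest Tyrobp-KO sample. Group means were 1606 ± 291 in WT, 1739 ± 262 in Tyrobp-KO, 1418 ± 367 in Q175 and 1353 ± 170.0 in Q175;Tyrobp-KO (SD).

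Ncf1 (ENSMUSG00000015950, chr5:134220053-134229625, minus strand) encodes p47phox, the organizer whose phosphorylation brings the cytosolic subunits to the membrane. WT replicates 1, 2, 6, 7 and 8 held 2843, 4584, 2475, 6512 and 6239.9 normalized counts of it. Q175 replicates 3, 4, 9, 14 and 17 held 5550.3, 1676, 5078, 3479 and 5207. WT alone covered most of the range of the series, with replicates 1 and 6 low and 7 and 8 high, and Q175 replicate 4 had the lowest value of all 18 samples. Ncf1 had 5764, 6711 and 3287 normalized counts in Tyrobp-KO replicates 15, 19 and 20. It had 3849, 5926, 5200.1, 6319 and 5661 in Q175;Tyrobp-KO replicates 5, 11, 12, 13 and 16. Group means were 4531 ± 1866 in WT, 5254 ± 1768 in Tyrobp-KO, 4198 ± 1620.0 in Q175 and 5391 ± 953 in Q175;Tyrobp-KO (SD), and all groups overlapped. Of its 3663 exonic bases, 408 lie on exons of Gtf2ird2 on the other strand, and as the libraries keep no strand, reads there cannot be told apart.

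Ncf4 (ENSMUSG00000071715, chr15:78244801-78262580, plus strand) encodes p40phox, which binds a phosphoinositide of phagosome membranes. WT replicates 1, 2, 6, 7 and 8 had 332, 521, 334, 822 and 693 normalized counts of it, and Q175 replicates 3, 4, 9, 14 and 17 had 527, 268, 581, 457 and 663. The low and the high WT samples were the same as for Ncf1, and Q175 replicate 4 was again the lowest of all. Tyrobp-KO replicates 15, 19 and 20 had 646, 589 and 374 normalized counts of Ncf4, and Q175;Tyrobp-KO replicates 5, 11, 12, 13 and 16 had 355, 540.0, 574, 678 and 709. Group means lay between 499 ± 149.8 in Q175 and 571 ± 139 in Q175;Tyrobp-KO (SD, n = 5 each), closer together than the samples within either group.

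Rac1 (ENSMUSG00000001847, chr5:143503634-143528036, minus strand) and Rac2 (ENSMUSG00000033220, chr15:78559167-78572783, minus strand) encode the GTPases that complete the active oxidase. Rac1 is made by nearly all cells and Rac2 mainly by blood and myeloid cells. Their coding sequences are both 576 bases without the stop codon and are identical at 444 aligned bases (77.1%), and the longest identical stretch is 29 bases. The last 75 coding bases hold the end of each protein, where the family members differ most and which is cut and lipid-modified for attachment to membranes, and they show how reads of the genes are told apart. They were read from GRCm38 through the GENCODE M21 annotation and are printed 5′ to 3′, with the bases that differ between the pair in capitals.
Rac1: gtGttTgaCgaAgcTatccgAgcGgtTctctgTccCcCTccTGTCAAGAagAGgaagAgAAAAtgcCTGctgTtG
Rac2: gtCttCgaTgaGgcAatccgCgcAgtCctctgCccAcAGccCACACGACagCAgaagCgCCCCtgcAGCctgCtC
In this stretch 43 of the bases are identical (57.3%), against 80.0% in the coding sequence before it. Of the 4496 exonic bases of Rac1, 2309 are shared with exons of Daglb on the opposite strand, so the counts of Rac1 are uncertain, as reads there may have been left uncounted or may come from Daglb.

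Rac1 had 6199.7, 5558, 5917, 4324 and 4721 normalized counts in WT replicates 1, 2, 6, 7 and 8. It had 4521, 4631, 4105, 5006 and 6358 in Q175 replicates 3, 4, 9, 14 and 17. Within WT, the samples that were low for Ncf1 and Ncf4 were the highest for Rac1, and the single highest value was that of Q175 replicate 17. Tyrobp-KO replicates 15, 19 and 20 had 5604, 6260.0 and 5409 normalized counts of Rac1. Q175;Tyrobp-KO replicates 5, 11, 12, 13 and 16 had 4404, 4931, 4506, 4944 and 5207. Every Q175;Tyrobp-KO sample was below every Tyrobp-KO sample, with means of 4798 ± 334 (SD, n = 5) and 5758 ± 446 (SD, n = 3).

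Rac2 had 524, 781, 448, 1004 and 838 normalized counts in WT replicates 1, 2, 6, 7 and 8. It had 924, 345, 752, 648 and 812 in Q175 replicates 3, 4, 9, 14 and 17. As for Ncf1 and Ncf4, WT replicates 1 and 6 were low and Q175 replicate 4 was the lowest of the series. Tyrobp-KO replicates 15, 19 and 20 had 1008, 1293 and 565 normalized counts of Rac2. Q175;Tyrobp-KO replicates 5, 11, 12, 13 and 16 had 704, 962, 942, 1058 and 929. The Q175;Tyrobp-KO samples other than replicate 5 were above every Q175 sample, at group means of 919 ± 131 and 696 ± 220.1 (SD, n = 5 each).

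**Figure D1:**
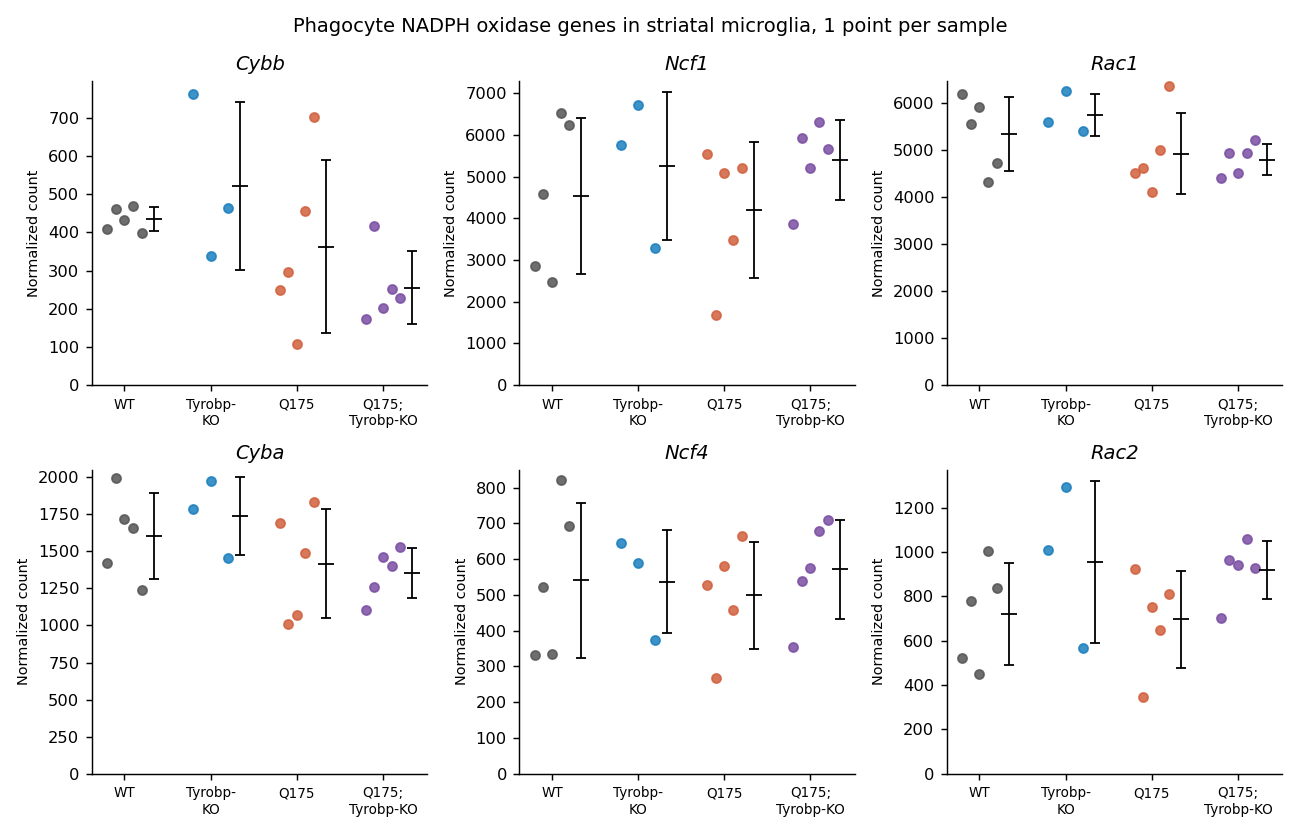
Normalized counts (vertical axes, from 0) of the 6 oxidase genes in the 18 samples, by group, with 1 point per sample and the group mean ± SD as a bar at its right. Cybb spans 108 to 702 in Q175 against 398 to 471 in WT, and for Rac1 the 5 Q175;Tyrobp-KO samples all sit below the 3 Tyrobp-KO samples.

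Q175 was compared with WT to ask how mutant huntingtin changes the genes where Tyrobp is intact. All 6 genes had lower fitted values in Q175, as had 53.3% of the 18266 genes tested, and none passed edgeR's quasi-likelihood test at a false discovery rate (FDR) of 0.1. The log2 fold change was −0.28 for Cybb (95% interval −1.06 to 0.50), −0.20 for Cyba (−0.64 to 0.25), −0.12 for Ncf1 (−0.85 to 0.61), −0.12 for Ncf4 (−0.74 to 0.49), −0.14 for Rac1 (−0.53 to 0.25) and −0.06 for Rac2 (−0.64 to 0.52). Every adjusted p was 0.999, and the median of the 6 values was −0.13 against −0.02 over all genes tested. The count of genes called was 0 of 6, against a background of 0% at this FDR. At an unadjusted p under 0.05 it was 0 of 6 against 6.24%, and for 0 of 6 the groups did not overlap, against 1.16%. DESeq2 also called 0 of 6. How many genes DESeq2 called over the whole table is given at the end, for the comparisons of groups and the interaction. The intervals of all genes but Rac1 still hold changes of over 1.5-fold, so these data do not show that the groups are alike. The value for Cybb moved with the model: it was −1.07 with sex as a term (unadjusted p = 0.0523) and −1.40 with a score of astrocyte, neuronal and oligodendrocyte markers as a term (unadjusted p = 0.0265), with an adjusted p of 1 in both. It was −0.07 without Q175 replicate 9 and −0.68 without Q175 replicate 17 (unadjusted p = 0.0539, adjusted p = 0.629). Without WT replicate 7 or without Q175 replicate 4, the signs for Ncf1, Ncf4 and Rac2 turned to higher, with values up to 0.08, 0.06 and 0.11.

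Q175;Tyrobp-KO was compared with Q175 to ask what loss of Tyrobp does in the disease model. Rac2, Ncf1 and Ncf4 had higher values and Cybb, Cyba and Rac1 lower values in Q175;Tyrobp-KO, and none of the 6 passed the test. Rac2 differed by 0.39 on the log2 scale (SE 0.21, 95% interval −0.07 to 0.85, unadjusted p = 0.0868, adjusted p = 0.533) and was higher in 22 of 25 pairs of samples. For Ncf1 the log2 fold change was 0.35 (interval −0.22 to 0.93) and for Ncf4 it was 0.19 (−0.31 to 0.68). For Cybb it was −0.52 (SE 0.39, interval −1.37 to 0.33, adjusted p = 0.569), for Cyba −0.08 (−0.45 to 0.29) and for Rac1 −0.05 (−0.34 to 0.24). The median of the 6 values was 0.07 against −0.05 over all genes. For Cybb the value was −0.17 without Q175 replicate 17, the sample with 702 normalized counts, and −0.76 without Q175 replicate 9, the sample with 108 (unadjusted p = 0.0296, adjusted p = 0.321). For Rac2 it was 0.24 without Q175 replicate 4 and 0.52 without Q175 replicate 3 (unadjusted p = 0.0295, adjusted p = 0.44), and for Ncf1 it was 0.17 without Q175 replicate 4. The microglial level was 17835 ± 2448 in Q175;Tyrobp-KO and 15365 ± 3917 in Q175 (SD, n = 5 each), and with it as a term the values were 0.17 for Rac2 and 0.07 for Ncf1. The count called was 0 of 6 by edgeR, where 0.0111% of 18059 genes were called, 0 of 6 by DESeq2, 0 of 6 at an unadjusted p under 0.05 (background 8.01%), and 0 of 6 with groups that did not overlap (background 0.853%). The genes called over the whole table were Tyrobp itself and St8sia6, both lower.

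Tyrobp-KO was compared with WT, which is the same deletion without the Q175 allele. Here 5 of the 6 genes had higher fitted values in Tyrobp-KO, and none passed the test. The log2 fold change was 0.40 for Rac2 (95% interval −0.28 to 1.09), 0.26 for Cybb (−0.30 to 0.81), 0.21 for Ncf1 (−0.58 to 0.99), 0.10 for Cyba (−0.35 to 0.56), 0.09 for Rac1 (−0.36 to 0.54) and −0.01 for Ncf4 (−0.73 to 0.70). Adjusted p-values were between 0.94 and 0.999, and the median of the 6 values was 0.16 against 0.02 over all genes. By edgeR and by DESeq2 0 of 6 were called (edgeR background 0.0222% of 18017 genes), at an unadjusted p under 0.05 there were 0 of 6 (background 6.82%), and groups without overlap were 0 of 6 (background 4.5%). The value for Cybb rested on Tyrobp-KO replicate 15 and was −0.13 without it. The 4 genes called over the table were all lower, and they were Spp1, Tyrobp, Clec7a and St8sia6.

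Q175;Tyrobp-KO was compared with Tyrobp-KO, which is the Q175 allele where Tyrobp is absent. Cybb had the largest difference of any oxidase gene in the 4 comparisons of groups: its log2 fold change was −1.04 (SE 0.31, 95% interval −1.76 to −0.33), or 48.5% of the Tyrobp-KO level, and it was higher in Q175;Tyrobp-KO in 1 of 15 pairs of samples. Its unadjusted p was 0.00883 and its adjusted p 0.291, so it did not pass. Cyba had −0.36 (interval −0.65 to −0.07, unadjusted p = 0.0193, adjusted p = 0.311) and Rac1 −0.26 (interval −0.49 to −0.03, unadjusted p = 0.0297, adjusted p = 0.33). Ncf1, Ncf4 and Rac2 had values of 0.04 (interval −0.44 to 0.53), 0.09 (−0.42 to 0.61) and −0.05 (−0.55 to 0.45). The median of the 6 was −0.15 against −0.01 over all genes. At the FDR the count was 0 of 6, as it was for all 17723 genes tested (background 0%). At an unadjusted p under 0.05 the count was 3 of 6, all lower, where 13.2% of all genes were under it in either direction and 8.24% were under it and lower. Groups did not overlap for 1 of 6, Rac1, against a background of 9.04%.

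DESeq2 called 1 of 6 in the same comparison, Cybb at −1.03 with an adjusted p of 0.0885, where it called 4.65% of genes. Without Tyrobp-KO replicate 15, the sample with 764 normalized counts, edgeR's log2 fold change of Cybb was −0.66 (unadjusted p = 0.0668). With sex as a term it was −1.04 (adjusted p = 0.384), and with the GC slope of the library, defined further on, it was −0.67 (adjusted p = 0.326). With the microglial level as a term, an alternative chosen after seeing the data, Cybb was called at −0.97 with an adjusted p of 0.0682, and so were 19.5% of all genes. By edgeR, Cyba and Rac1 had unadjusted p-values of 0.122 and 0.153 without Tyrobp-KO replicate 19. They were 0.0063 and 0.023 without replicate 20, and 0.0708 and 0.0998 with all 4 groups in 1 fit. Both genes stayed lower in each of these. Markers of border-associated macrophages, which also hold the oxidase, differed in this comparison, at low levels. Of the 7, 5 were detected in every sample. Their geometric mean was between 28.3 and 30.0 in Tyrobp-KO and between 8.61 and 21.3 in Q175;Tyrobp-KO. It was between 10.4 and 15.1 in WT, where Cybb had 398 to 471 normalized counts. In Q175 it was between 8.57 and 47.7, where Cybb had 108 to 702. Those of monocytes and neutrophils were between 27.0 and 62.4 in Tyrobp-KO and between 13.5 and 43.7 in Q175;Tyrobp-KO. Their part in the difference of Cybb was not tested.

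The interaction asks whether loss of Tyrobp acted otherwise in Q175 than in WT. For Cybb the difference of differences was −0.70 (SE 0.53, 95% interval −1.81 to 0.40, adjusted p = 0.733). For the other 5 genes it was between −0.11 for Cyba and 0.27 for Ncf4, with adjusted p-values from 0.857 to 0.974. The count was 0 of 6 by edgeR (0% of 18613 genes), 0 of 6 by DESeq2 and 0 of 6 at an unadjusted p under 0.05 (background 6.01%). The value for Cybb was −0.19 with sex as a term, −0.34 without Tyrobp-KO replicate 15, −0.35 without Q175 replicate 17 and −0.94 without Q175 replicate 9 (unadjusted p = 0.0378, adjusted p = 0.487). The 4 comparisons share their groups in pairs, and the values of each stand side by side here without a measure of likeness between them.

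Females were compared with males with the groups as terms, since Cybb lies on the X chromosome and the sexes are unevenly spread over the groups. Cybb was 0.43 higher in females on the log2 scale (95% interval −0.26 to 1.12, adjusted p = 0.912), and the other 5 genes were between −0.08 for Ncf1 and 0.08 for Ncf4. The value for Cybb was 0.0543 without Q175 replicate 9, a male sample, and 0.77 with the GC slope as a term (unadjusted p = 0.0107, adjusted p = 0.729). By edgeR and by DESeq2 0 of 6 were called (edgeR background 0.043%), and 0 of 6 were under an unadjusted p of 0.05 (background 5.18%).

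**Figure D2:**
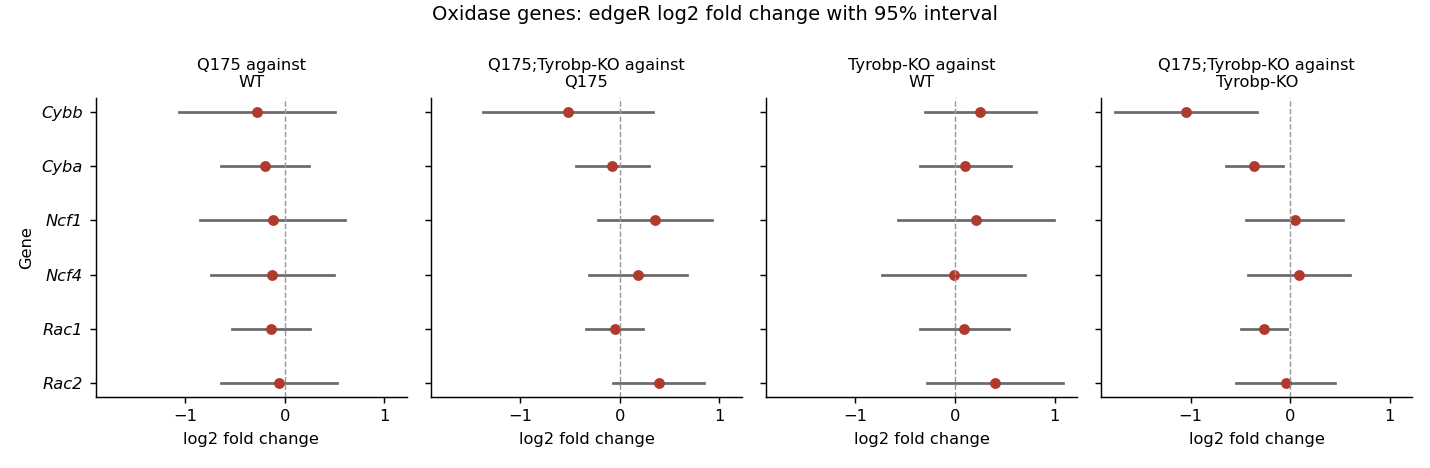
edgeR log2 fold change (point, horizontal axis) with its 95% interval (line) for the 6 oxidase genes (vertical axis) in the 4 comparisons of groups. Only for Cybb, Cyba and Rac1 in Q175;Tyrobp-KO against Tyrobp-KO does the interval lie to the left of 0, from −1.76 to −0.33 for Cybb.

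Across the 18 samples the genes fell into sets that went together. Ncf1 and Rac2 had a Pearson r of 0.97 and a Spearman rho of 0.94 on log2 CPM, Ncf1 and Ncf4 had 0.92 and 0.86, and Ncf4 and Rac2 had 0.86 and 0.78. Their permutation p-values for r were 1e-05 (the smallest that 100000 permutations can give), 1e-05 and 2e-05, with adjusted values of 0.000112, 0.000112 and 0.00018 over the 45 relations computed. In these 3 pairs r stayed between 0.77 and 0.93 without the 2 samples farthest from the median. With deviations from the group means it was between 0.90 and 0.98, so the relations held within groups. Samples with more transcript of one cytosolic subunit thus had more of the other and of Rac2, whichever genotype they had. With the microglial level held constant, r was 0.86 for Ncf1 and Rac2 (permutation, adjusted p = 0.00045). It was then 0.76 for Ncf1 and Ncf4 (adjusted p = 0.00199). For Ncf4 and Rac2 it was 0.52 (adjusted p = 0.0713), which did not pass.

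Cybb, Cyba and Rac1 formed looser pairs. Cybb and Rac1 had an r of 0.65 (rho 0.55, permutation p = 0.00293, adjusted p = 0.0126), Cyba and Rac1 had 0.64 (rho 0.62, p = 0.00435, adjusted p = 0.0159), and Cybb and Cyba had 0.58 (rho 0.54, p = 0.0113, adjusted p = 0.0363). Without the 2 farthest samples r was 0.49, 0.55 and 0.34, and with deviations from the group means it was 0.53, 0.52 and 0.43. None of these passed after adjustment. With the microglial level held constant, Cybb and Rac1 had an r of 0.62 (adjusted p = 0.0256), Cyba and Rac1 0.60 (adjusted p = 0.0373) and Cybb and Cyba 0.55 (adjusted p = 0.0553). Without that level held constant, the other 9 of the 15 pairs, all between the sets, did not pass. There r was −0.03 for Cybb and Ncf1, −0.12 for Ncf1 and Rac1 and −0.05 for Rac1 and Rac2. Among the pairs across the sets, r was highest for Cyba and Rac2 at 0.42 (rho 0.33, permutation p = 0.0827, adjusted p = 0.233). With scaling by total counts in place of the effective library size, Cyba had 0.54 with Ncf1, 0.55 with Ncf4 and 0.59 with Rac2. Cybb and Cyba had 0.55 there. Rac1 had 0.26 with Ncf1, 0.25 with Ncf4 and 0.30 with Rac2. Cybb stayed at 0.05 to 0.14 with Ncf1, Ncf4 and Rac2. The split into sets thus depended in part on the scaling. Without the microglial level held constant, no correlation was found between the transcripts of the flavocytochrome's catalytic subunit and of its organizer at this sample size. With it held constant, r was −0.56 for Cybb and Ncf1 (permutation, adjusted p = 0.0553). It was −0.62 for Cybb and Rac2 (adjusted p = 0.0256) and −0.68 for Ncf4 and Rac1 (adjusted p = 0.01085). Cybb with Ncf4, and Cyba with Ncf1, Ncf4 or Rac2, did not pass then.

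The first set followed the microglial level of the libraries. That level had an r of 0.90 with Rac2 (rho 0.84, adjusted p = 0.000112), 0.88 with Ncf1 (rho 0.77, adjusted p = 0.000112) and 0.81 with Ncf4 (rho 0.71, adjusted p = 0.000707), all by permutation. Without the 2 farthest samples these were 0.80, 0.79 and 0.78. With Cyba it was 0.63 (rho 0.55, adjusted p = 0.0159) and 0.39 without the 2 farthest samples, with Rac1 it was 0.32 (adjusted p = 0.456) and with Cybb 0.26 (adjusted p = 0.572). Q175 replicate 4, lowest for Ncf1, Ncf4 and Rac2, also had the lowest microglial level and the highest share of reads on the ribosomal-RNA-like genes Gm26917 and Gm42418, 29.5%. That share ran from 11.7% to 29.5% and had an r of −0.69 with Ncf1 (rho −0.71, adjusted p = 0.00624), −0.68 with Rac2 (rho −0.63, adjusted p = 0.0095) and −0.66 with Ncf4 (rho −0.66, adjusted p = 0.0126). Without the 2 farthest samples these were −0.54, −0.50 and −0.49, and given the microglial level they were −0.05, 0.08 and −0.09.

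Rac1 followed another feature of the libraries, the GC slope. This is the slope, over 9582 other protein-coding genes, of a sample's deviation from the mean log2 CPM on the GC content of the gene, in log2 units per 10 percentage points, and it ran from −0.29 in WT replicate 1 to 0.36 in WT replicate 7. Rac1 had an r of −0.85 with it (rho −0.84, permutation p = 3e-05, adjusted p = 0.000225) and −0.82 without the 2 farthest samples. Cybb had −0.51 (rho −0.49, p = 0.0284, adjusted p = 0.0851), which did not pass. Without the 2 farthest samples Cybb had −0.75 (rho −0.74). The transcripts of Cybb hold 42.5% GC, more than only 11.3% of the genes compared. Those of Rac1 hold 48.2%, more than 40.9% of them, and those of Cyba 58.8%, more than 93.8%. Cyba had an r of −0.26 with the slope (permutation, adjusted p = 0.572). The transcripts of Rac2, Ncf1 and Ncf4 hold 53.9%, 53.9% and 54.8% GC. These genes had an r of 0.21, 0.24 and 0.30 with the slope (adjusted p = 0.598, 0.598 and 0.483). The part of the library's GC slope in the levels of Rac1 was not tested beyond these values. With the microglial level held constant, an alternative added after seeing the data, Ncf1 and Rac1 had an r of −0.88 (adjusted p = 0.00045). Rac1 and Rac2 then had −0.82 (adjusted p = 0.000675). With the GC slope, Ncf1 had 0.81, Rac2 0.82 (adjusted p = 0.000675 each) and Ncf4 0.74 (adjusted p = 0.00242) in that setting. Rac1 had −0.85 (adjusted p = 0.00045), Cybb −0.49 (adjusted p = 0.0985) and Cyba −0.20 (adjusted p = 0.857).

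**Figure D3:**
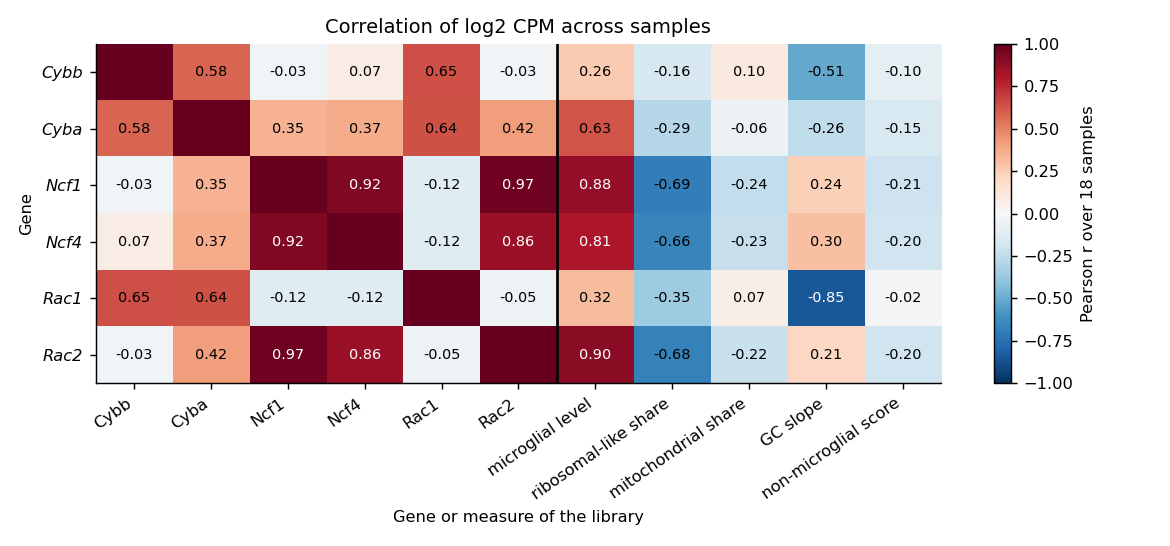
Pearson r of log2 CPM over the 18 samples between the 6 oxidase genes (rows) and, in columns, the same genes and 5 measures of the library, with red for positive and blue for negative values. Ncf1, Ncf4 and Rac2 have values of 0.86 to 0.97 with each other and 0.81 to 0.90 with the microglial level, and Rac1 has −0.85 with the GC slope.

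**Figure D4:**
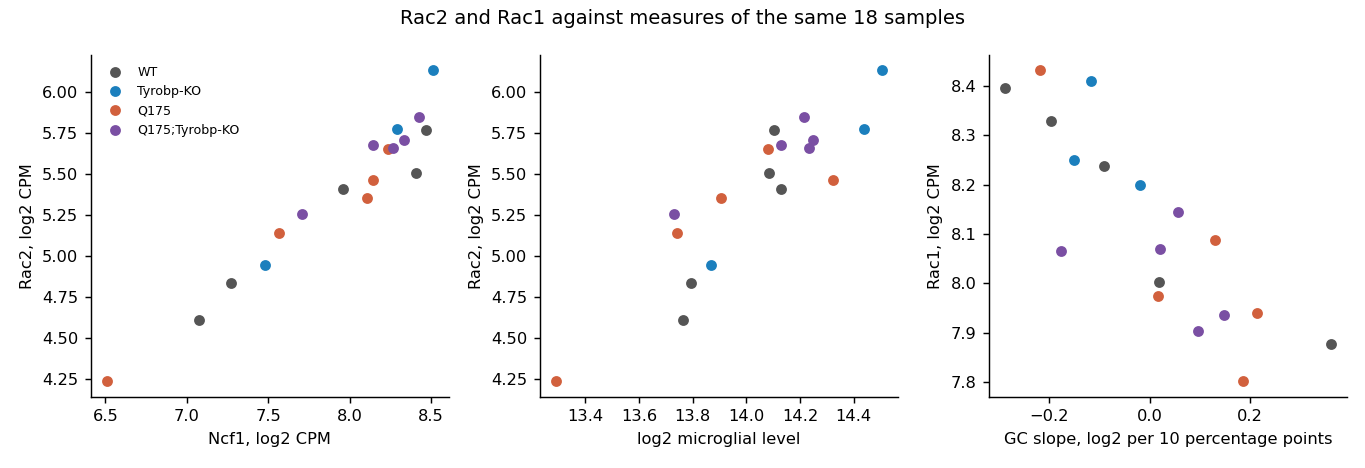
Each of the 18 samples by log2 CPM of Rac2 against Ncf1 (left), of Rac2 against the log2 microglial level (middle) and of Rac1 against the GC slope (right), coloured by group. The 4 groups lie along the same lines, with an r of 0.97, 0.90 and −0.85.

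Ratios between paired subunits were set beside the single genes. A library feature that acts alike on both genes cancels in a ratio, but the microglial level and the GC slope went differently with Rac1 and Rac2, as given above, and do not cancel in theirs. For Cybb and Cyba r was 0.26 and 0.63 with the microglial level and −0.51 and −0.26 with the GC slope. These features need not cancel in that ratio either. The count ratio of Rac2 to Rac1 was 0.0846, 0.141, 0.0758, 0.232 and 0.178 in WT replicates 1, 2, 6, 7 and 8. Among the Q175 samples it was 0.205, 0.0749, 0.183, 0.13 and 0.128 for replicates 3, 4, 9, 14 and 17. In Q175;Tyrobp-KO replicates 5, 11, 12, 13 and 16 it was 0.16, 0.195, 0.209, 0.214 and 0.179, a narrower band at the upper end of the others. The log2 ratio was 0.48 higher in Q175;Tyrobp-KO than in Q175 (exact permutation, 2-sided, p = 0.0952, with 0.536 after adjustment over 12 tests) and higher in 20 of 25 pairs of samples. For Cybb to Cyba it was −0.66 in Q175;Tyrobp-KO against Tyrobp-KO (exact permutation p = 0.179, adjusted p = 0.536). For Ncf1 to Ncf4 the log2 differences were between −0.04 and 0.24 in the 4 comparisons, and the count ratio was between 6.23 and 11.4 in all 18 samples. None of the 12 ratio tests passed.

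The genes whose pattern over the 18 samples was most like each oxidase gene were taken from 9591 protein-coding genes with a mean of at least 10 CPM, by Pearson r of log2 CPM. For Ncf1 they were Itgb2, the CD18 chain that pairs with CD11b, with an r of 0.99, then Tnfrsf21 and Vsir with 0.99 each. Rac2 was most like Ralb, Rgs19 and Lrrc3 with 0.98 each, and Ncf4 was most like Iqgap3, Il21r and Man2b2 with 0.97 each. These likenesses were shared by many genes, as 560 genes had an r over 0.9 with Ncf1, 347 with Rac2 and 297 with Ncf4. Cyba was most like Trem2, a receptor that signals through TYROBP, with 0.93, then C1qa with 0.92 and Hexa with 0.90. Rac1 was most like Tardbp with 0.98, then Ddx5 and Ociad1 with 0.95 each, and 37 genes passed 0.9. For Cybb no gene reached 0.9, and the nearest were H2-M3 and Cd274 with 0.85 each and Trim12c with 0.82. These are descriptions, over samples that share their library features.

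Around the oxidase, 71 genes in 8 lists were followed in the same fits, of which 64 or 65 could be tested. By edgeR 0 of them were called in any of the 6 comparisons. DESeq2 called 9 in Q175;Tyrobp-KO against Tyrobp-KO, where it called 4.65% of all genes, and 0 in the others. Its calls over all genes are given at the end, for the comparisons of groups and the interaction. At an unadjusted p under 0.05 there were 3 of 64 in Q175 against WT (6.24% of all genes), 5 of 64 in Q175;Tyrobp-KO against Q175 (8.01%), 2 of 65 in Tyrobp-KO against WT (6.82%), 12 of 65 in Q175;Tyrobp-KO against Tyrobp-KO (13.2%), 2 of 65 in the interaction (6.01%) and 5 of 65 between the sexes (5.18%).

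Among partners that bind or regulate the oxidase, Prdx6, a peroxiredoxin that also has phospholipase activity, was higher in Q175 than in WT by 1.23 (SE 0.38, unadjusted p = 0.00613, adjusted p = 0.4) and higher in Tyrobp-KO than in WT by 1.27 (SE 0.38, unadjusted p = 0.00738, adjusted p = 0.586). The groups did not overlap in either case, against a background of 1.16% and 4.5% of all genes. The level of astrocyte markers was between 509.8 and 761 in WT, between 902 and 3503 in Q175 and between 510.2 and 2764 in Tyrobp-KO. It thus lay above WT in all Q175 samples, while Tyrobp-KO overlapped with WT. No relation of Prdx6 to this level was computed, and its part in these values was not tested. Rap1a, a small GTPase found with the flavocytochrome, had a log2 fold change of −0.35 in Q175;Tyrobp-KO against Tyrobp-KO (adjusted p = 0.291). The proton channel Hvcn1, which offsets the charge that the oxidase moves, had a mean RPKM of 35.2. Other NADPH oxidases were scarce: Nox3 and Noxa1 had 0 counts in all 18 samples, where a count of 0 allows up to 3, Nox1, Nox4, Duox1 and Duox2 had a mean RPKM of under 0.1, and Noxo1 at 1.57 and Duoxa1 at 0.867 were the highest of the list. Cybb was thus the NADPH oxidase with the most transcript per length in these libraries.

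The GTPases of the same family as Rac1 and Rac2 and their inhibitors had 6 of 6 lower values in Q175;Tyrobp-KO than in Tyrobp-KO, with a median of −0.26 against −0.01 over all genes. Cdc42 had −0.52 (SE 0.14, unadjusted p = 0.00468, adjusted p = 0.291) and Rhoa −0.35 (SE 0.11, unadjusted p = 0.0101, adjusted p = 0.291). Both were without overlap, as Rac1 was, and so were 9.04% of all genes. Of the 7 Rac exchange factors, which load Rac with GTP, Dock2 was higher by 0.43 in Q175;Tyrobp-KO than in Q175 (unadjusted p = 0.0389, adjusted p = 0.533) and Vav1 by 0.43 (unadjusted p = 0.0665). Of the 16 upstream kinases and receptors, 13 had higher values in that comparison, with a median of 0.34 against −0.05 over all genes. They include Itgam, the CD11b that the beads bind, at 0.69 (unadjusted p = 0.0342), and Prkca at 0.35 (unadjusted p = 0.0193), while Fgr had −1.21 (unadjusted p = 0.0112, adjusted p = 0.533 for each). The 5 transcription factors of oxidase genes had values between 0.14 and 0.39 there, Spi1 (PU.1) being the highest, and Cebpb had −0.63 in Q175;Tyrobp-KO against Tyrobp-KO (unadjusted p = 0.0085, adjusted p = 0.291).

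The 17 antioxidant enzymes, which clear what the oxidase makes, are the longest of the lists. In Q175;Tyrobp-KO against Tyrobp-KO 6 of 17 were under an unadjusted p of 0.05, all lower, where 13.2% of all genes were under it and 8.24% were under it and lower, and in Q175;Tyrobp-KO against Q175 0 of 17 were. In the former comparison the median of the list was −0.44 against −0.01 over all genes. Txn1 (thioredoxin) had −0.93 (SE 0.24, unadjusted p = 0.00354, adjusted p = 0.291) and Prdx5 −0.54 (SE 0.15, unadjusted p = 0.00549, adjusted p = 0.291). In Tyrobp-KO against WT 16 of the 17 had higher values, with a median of 0.45, 1 of them, Gpx4, under an unadjusted p of 0.05. Of the 6 genes that supply NADPH, Me1 (malic enzyme) was higher by 1.28 in Q175 than in WT (unadjusted p = 0.00818, adjusted p = 0.441) and Idh1 had −0.53 in Q175;Tyrobp-KO against Tyrobp-KO (unadjusted p = 0.0179, adjusted p = 0.31). The level of astrocyte markers, whose cells are rich in several of these enzymes, was 1243 ± 763 in Q175;Tyrobp-KO and 1403 ± 1198 in Tyrobp-KO (SD), and its part in these values was not tested either.

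**Figure D5:**
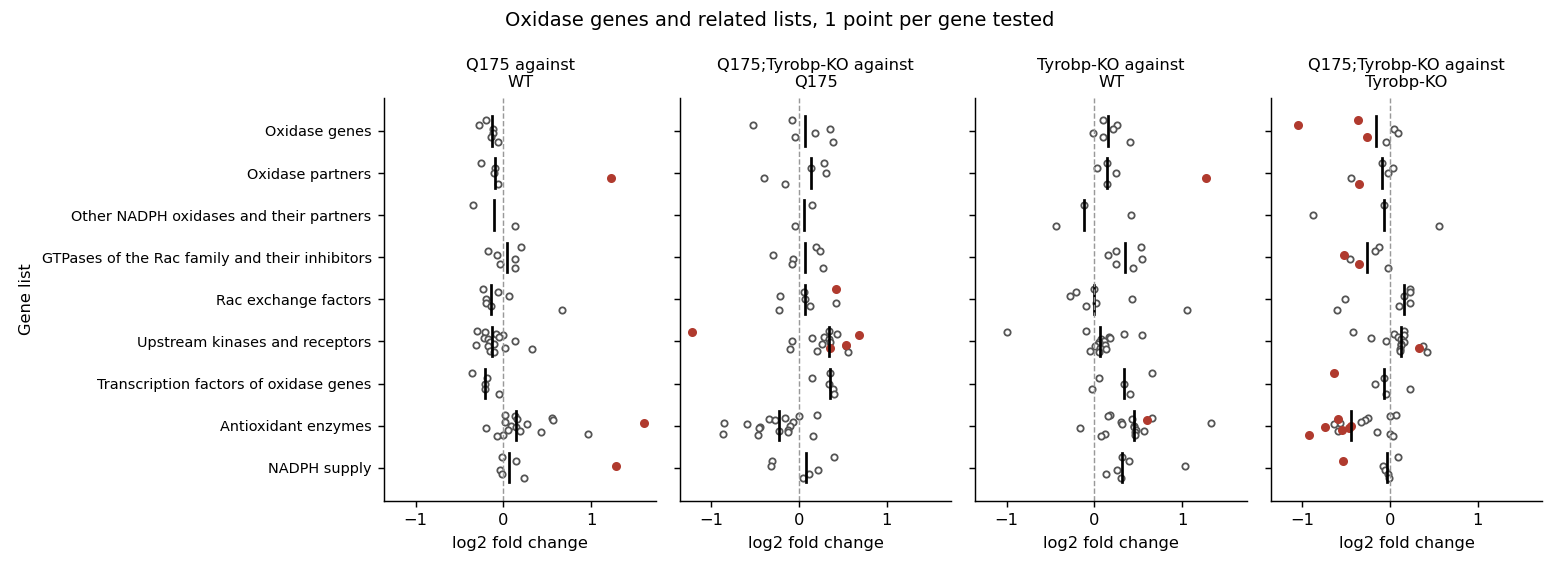
edgeR log2 fold change (horizontal axis) of each gene tested in the oxidase set and the 8 related lists (vertical axis) in the 4 comparisons of groups, with filled points for an unadjusted p under 0.05 and a bar at the median of the list. In Q175;Tyrobp-KO against Tyrobp-KO 3 of 6 oxidase genes and 6 of 17 antioxidant enzymes are filled, all to the left of 0.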

How the data were processed

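RNA of 18 CD11b-bead-enriched striatal microglia samples was made into low-input libraries that keep no strand. The authors aligned reads with STAR and deposited whole-number counts per Ensembl gene from featureCounts, without normalization. The methods name the mouse build GRCm38 while the labels name GRCh38, and the methods name a UCSC gene model, but all 55536 identifiers are in GENCODE M21, which gave symbols, positions and lengths. Of the table's columns, 2 matched no sample and were not used. Protein and bulk-tissue data were not analysed here, and 1 gene counted in a list is not reported here.

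Counts were scaled by TMM and tested with edgeR 4.0.16 (quasi-likelihood test, R 4.3.3) over all genes that reached 1 CPM in 1 or more samples of the comparison, without covariates, with Benjamini-Hochberg adjustment over all of them and an FDR of 0.1. The groups of each comparison were fitted alone, and all 18 samples for the interaction and for sex. Log2 CPM used a prior count of 2. Relations used 100000 permutations (Python 3.11.15, scipy 1.17.1), adjusted over 45 relations, 18 of them added after seeing the data, and ratios used 2-sided exact permutation tests. Alternatives were DESeq2 1.42.0, no filter, an FDR of 0.05, all 4 groups in 1 fit, sex or a non-microglial score (standardized marker levels of oligodendrocytes, neurons and astrocytes, averaged) as a term, and each sample left out. For the relations, scaling by total counts was another alternative. The microglial level and the GC slope as terms were chosen after seeing the data. The tests were tried on simulated data first. The named genes are the 6 genes, Tyrobp, the 3 genes most like each of the 6, and from each related list any called gene, the 2 of smallest p and the 2 of highest level per length. Itgam and some NADPH oxidases were named outside this rule, after their values were seen. The members and lists were chosen with earlier results of these data known. Depth was between 11260410 and 29771983 counts per sample, and statements of counting limits cover counting error only.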

Additional observations from a re-analysis of the deposited data

How the results depend on the processing

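In no comparison did an oxidase gene pass the FDR with any sample left out (0 to 0 of 6), nor did a pathway gene (0 to 0). Over all genes, leaving out 1 sample gave 1 to 5 calls in Q175;Tyrobp-KO against Q175 (2 with all samples), 2 to 8 in Tyrobp-KO against WT (4), 8 to 11 between the sexes (8) and 0 in the others. DESeq2 called 234 genes in Q175 against WT, 41 in Q175;Tyrobp-KO against Q175, 168 in Tyrobp-KO against WT, 680 in Q175;Tyrobp-KO against Tyrobp-KO and 2 in the interaction. In Q175;Tyrobp-KO against Q175 the calls were 9 with no filter, 1 at an FDR of 0.05, 15 with all 4 groups in 1 fit, 1 with sex, 1 with the non-microglial score and 5 with the microglial level as a term. In Tyrobp-KO against WT they were 15 with no filter, 8 with all 4 groups, 2 with the score and 480 with the microglial level, which gave 3463 in Q175;Tyrobp-KO against Tyrobp-KO. There DESeq2 and the microglial level each called 1 oxidase gene, Cybb, and 9 and 27 pathway genes, where they called 4.65% and 19.5% of all genes. The microglial level called 3 pathway genes in Tyrobp-KO against WT. Of the pairs of oxidase genes 3 instead of 6 passed with group-mean deviations and 3 without the 2 farthest samples. The r of Rac2 with the ribosomal-like share had passed at −0.68 (permutation, adjusted p = 0.0095), and its sign turned given the microglial level. Signs also turned for fold changes and ratios that never passed. With the microglial level they were 0.0695 for Ncf1, 0.0348 for Ncf4 and 0.0873 for Rac2 in Q175 against WT, −0.0838 for Ncf4 in Q175;Tyrobp-KO against Q175, −0.0216 for Cyba, −0.37 for Ncf1 and −0.19 for Rac2 in Tyrobp-KO against WT, 0.19 for Rac2 in Q175;Tyrobp-KO against Tyrobp-KO, and 0.0718 for Ncf1 and 0.0589 for Rac2 between the sexes. With sex they were 0.0075 for Cyba and 0.021 for Rac1 in Q175;Tyrobp-KO against Q175, −0.0194 for Cybb in Tyrobp-KO against WT and −0.0334 for Ncf1 in Q175;Tyrobp-KO against Tyrobp-KO. With the score they were 0.24 for Ncf4 in Tyrobp-KO against WT, −0.12 for Rac2 in the interaction (−0.0132 with no filter), and 0.0619 for Ncf1 and 0.0622 for Rac2 between the sexes. With the GC slope they were 0.19 for Ncf4 in Tyrobp-KO against WT, 0.11 for Rac2 in Q175;Tyrobp-KO against Tyrobp-KO, and −0.0272 for Ncf4 and 0.0919 for Rac1 between the sexes. By medians the log2 differences were 0.0528 (Cybb to Cyba ratio, Q175 against WT), −0.12 (Rac2 to Rac1 ratio, Q175 against WT) and 0.0639 (Ncf1 to Ncf4 ratio, Q175;Tyrobp-KO against Tyrobp-KO), and r of Rac2 with the ribosomal-like share was 0.0768 given the microglial level. With a sample left out, ranges that crossed 0 were −0.17 to 0.0083 for Cyba and −0.11 to 0.0341 for Rac1 in Q175;Tyrobp-KO against Q175, −0.13 to 0.50 for Cybb and −0.17 to 0.16 for Ncf4 in Tyrobp-KO against WT, −0.27 to 0.0758 for Ncf1, −0.25 to 0.0568 for Ncf4 and −0.18 to 0.11 for Rac2 in Q175 against WT, −0.18 to 0.26 for Ncf1, −0.0863 to 0.26 for Ncf4 and −0.29 to 0.23 for Rac2 in Q175;Tyrobp-KO against Tyrobp-KO, −0.0365 to 0.41 for Ncf1, −0.14 to 0.0101 for Rac1 and −0.21 to 0.32 for Rac2 in the interaction, and −0.0415 to 0.15 for Cyba, −0.34 to 0.0231 for Ncf1, −0.18 to 0.18 for Ncf4, −0.11 to 0.0907 for Rac1 and −0.31 to 0.0717 for Rac2 between the sexes. For ratios they were −0.23 to 0.43 for Cybb to Cyba in Tyrobp-KO against WT, −0.14 to 0.0511 and −0.0751 to 0.11 for Ncf1 to Ncf4 in Q175 against WT and Q175;Tyrobp-KO against Tyrobp-KO, and −0.13 to 0.28 and −0.0192 to 0.47 for Rac2 to Rac1 in the same comparisons. The cause of these shifts was not tested. No paired analysis was possible because the groups share no replicate numbers. Depth limits what can be said of Nox3 and Noxa1, where 0 counts allow up to 3 per library.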
